A study of Mus musculus with 2 samples.

Results

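The genes of cytosolic translation initiation and elongation were compared between naive CD4 and naive CD8 T cells. They were taken by symbol, as every gene whose name begins with Eif1 to Eif6 or with Eef1 or Eef2, leaving out the interferon-regulated kinase gene Eif2ak2 and the Y-linked Eif2s3y. This gave 64 genes of the 23167 symbols in the files. The RNA sequencing arm of a study of 5-hydroxymethylcytosine in T cells holds 1 library of naive CD4 cells and 1 of naive CD8 cells. Both came from mice of the Foxp3-GFP strain on a C57/BL6 background, with no treatment, age or sex named in the labels. Cells were sorted by flow cytometry from spleen and lymph nodes, keeping cells high for CD62L and low for CD44 that lacked CD25 and the GFP reporter of Foxp3. The number of animals behind each library is not given in the sources used here. With 1 library per cell type no difference has a replicate check, no p-value is given, and every comparison is between these libraries.

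Translation starts when a small ribosomal subunit, loaded with initiator tRNA by eIF2 and held open by eIF1, eIF1A and eIF3, is brought to the capped 5′ end of an mRNA by eIF4F, the complex of the cap-binding protein eIF4E, the scaffold eIF4G and the helicase eIF4A. After the start codon is found, eIF5 and eIF5B release the factors and join the large subunit, and eEF1 and eEF2 then deliver aminoacyl-tRNA and move the ribosome along. Naive T cells are small resting cells that keep protein synthesis low, and they raise it quickly once their antigen receptor is engaged, with control exerted at eIF2, at eIF4E and at eEF2.

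Levels are in RPKM, reads scaled by gene length and by the reads of the library, and wherever a pair of values is given the CD4 library comes first. The markers of the sorted cells followed the labels, with Cd4 at 305 and 8.89 RPKM and Cd8a at 2.50 and 518 RPKM. The recovered library totals were 24741945 and 23853921 reads. B cell markers were low apart from Cd79b, at 2.14 and 28.8 RPKM, and of 5 erythroid markers 4 were listed at 0 in both libraries. Of 5 NK cell markers 2 were compared and both were higher in CD8, with a summed level of 7.99 and 107 RPKM, nearly all of it Klrd1. Of 4 regulatory T cell markers, Foxp3 was at 1.40 and 0.161 RPKM, Il2ra at 0.421 and 0.218, Ctla4 at 3.82 and 8.64 and Ikzf2 at 1.07 and 5.38. The myeloid list summed to 3.53 and 3.10 RPKM, with Itgam at 1.62 and 0.559, and the dendritic list to 0.436 and 1.18 RPKM. The 10 proliferation genes had a summed level of 243 and 213 RPKM, most of it Pcna, and Mki67 was at 1.26 and 1.34 RPKM. The part of these other cells or states in the values below was not tested, and in bulk RNA fewer cells of a type and less RNA per cell cannot be told apart.

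The symbol rule did not take translation factors alone. Eif2c1 to Eif2c4 are older names of the Argonaute genes, whose proteins carry microRNAs and silence target mRNAs, and Eif2ak1, Eif2ak3, Eif2ak4, Eef2k and the Eif4ebp genes encode regulators that inhibit translation. These are kept below under their own roles, and where all genes of the set are called translation factors for short, they are included. Of the 64 genes, 60 reached at least 1 RPKM in at least 1 library and were compared, on the scale of log2((CD4 RPKM + 1)/(CD8 RPKM + 1)). The other 4 were Eef1a2, the muscle and neuron form of eEF1A, with 1 read in CD4 and 0 in CD8, the Argonaute gene Eif2c4 with 4 reads and 0, and Eif3j and Eif4e1b, both listed at 0 in both libraries. Eif3j encodes a loosely bound eIF3 subunit that most cells use, so its 0 is not read as absence. In the mouse annotation it is the gene Eif3j1. Of the 50-base words of its longest transcript, 54.8% also occur in transcripts of other genes, above all the near copy Eif3j2. Members with larger shares did have reads, Eef1a1 (60.6%) with 363457 and 343848, Eef1g (64.3%) with 20177 and 19912, and Eif4ebp3 (65.5%) with 243 and 182. Whether shared sequence has a part in the 0 of Eif3j was not tested. How the authors treated reads that map to several places is not given in the sources used here.

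Translation factor mRNAs were nearly equal in the 2 libraries. The median log2 difference of the 60 compared genes was 0.01, against 0.08 over all 10228 compared symbols, and the median absolute difference was 0.15 against 0.25. With the pseudocount of 1 RPKM, no gene of the set was at least 1.5-fold higher in CD4, where the background share was 8.07% of compared symbols. The 2 genes Eef2k and Eif3b passed 1.5-fold toward CD8, where it was 7.47%. None passed 2-fold in either direction, against 5.48% of symbols, 2.41% toward CD4 and 3.07% toward CD8. As plain RPKM ratios, Eif4e3 (1.59-fold) and Eif2c1 (1.52-fold) were past 1.5-fold toward CD4, and Eef2k (2.12-fold) was past 2-fold toward CD8. Differences under 1.25-fold were found for 48 of the 60 genes, against 61.0% of all compared symbols. Of the 60, 31 stood toward CD4 and 29 toward CD8, while 59.5% of all compared symbols stood toward CD4 and 40.5% toward CD8. Ranked by level, the 60 genes had a Spearman rho of 0.991 between the libraries, where genes are not independent replicates, and all compared symbols had 0.953. The group is also more abundant than most genes, with a median of 39.2 and 41.1 RPKM against 14.1 and 13.4 over all compared symbols. Of the 29 translation factors at 50 RPKM or more in at least 1 library, 1 differed at least 1.5-fold, against 15.7% of the 1578 symbols at that level and 15.5% of all compared symbols.

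The balance of directions rests on the scaling. Summed RPKM over all symbols was 457587 in CD4 and 530342 in CD8. When both libraries were rescaled to sum to 1000000, the median of all compared symbols moved from 0.08 to 0.29, their counts past 1.5-fold from 825 toward CD4 and 764 toward CD8 to 1995 and 572, and the median of the translation factors from 0.01 to 0.22, with 47 of 60 toward CD4. Centred on the median compared gene, the translation factors stood at -0.07 with 20 of 60 toward CD4. The share of all compared symbols toward CD8 was 23.0% after that rescaling, and it is even by construction with either centring used below, on the median gene or on genes of similar length.

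**Figure D1:**
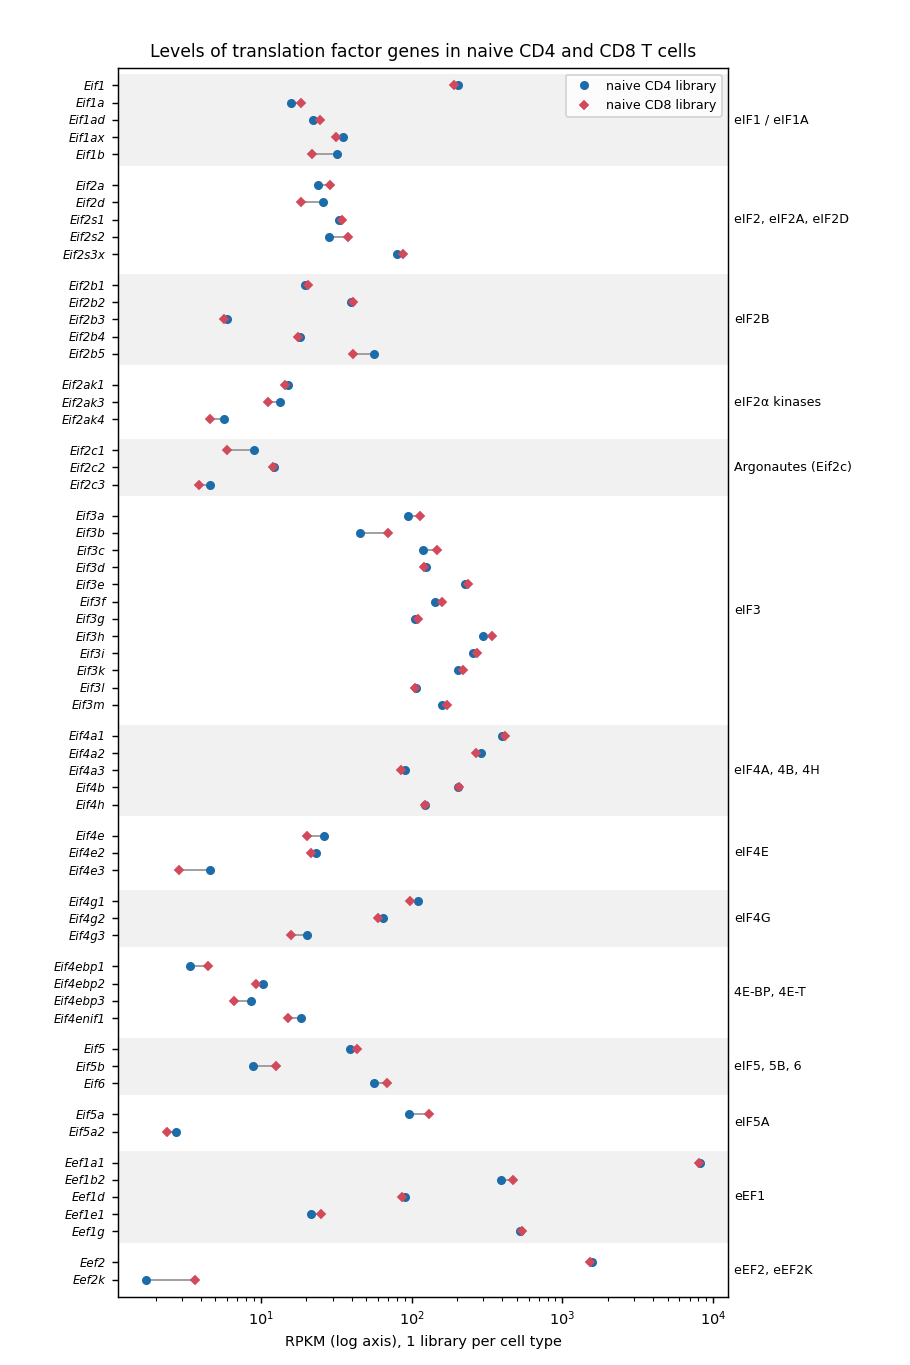
RPKM (log axis) of the 60 compared genes, by role, in the naive CD4 library (blue circles) and the naive CD8 library (red diamonds), 1 library each. Paired points lie close together for nearly every gene, Eef1a1 stands above all others at 8248 and 8094 RPKM, and Eef2k shows the widest gap, at 1.73 and 3.67 RPKM.

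Eef1a1 and Eef2 were the most abundant of the group. Eef1a1, which encodes the eEF1A protein that carries aminoacyl-tRNA to the ribosome, was at 8248 and 8094 RPKM, the second highest of all symbols in CD4, and held 54.9% of the summed RPKM of the 64 genes in CD4 and 53.6% in CD8. The libraries differed by 1.02-fold (95% counting interval 1.01 to 1.02, from 363457 and 343848 reads). Folds are ratios of the deposited RPKM, and their intervals cover counting error only. Eef2, the translocase that moves the ribosome by a codon, was at 1569.8 and 1533 RPKM (1.02-fold, 1.02 to 1.03). The ratio of Eef1a1 to Eef2 was 5.25 in CD4 and 5.28 in CD8. Eef1a1 and Eef2 both stood at 0.03 on the log2 scale and at -0.05 after centring on the median gene.

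Next to eEF1A stand the exchange factor subunits that recharge it. Eef1b2, a catalytic subunit, was at 391 and 475 RPKM (1.22-fold higher in CD8, 1.19 to 1.24). Eef1g, the gamma subunit that anchors the complex, was at 524 and 537 RPKM (1.02-fold higher in CD8, with an interval that began at equality to 2 decimals), and Eef1d, the delta subunit, at 91.0 and 86.2 RPKM. The median of the 5 compared eEF1 genes was -0.03, and it was 0.18 after rescaling to a sum of 1000000 and -0.11 when centred on the median gene. Without the genes of shared sequence it was -0.20, which is the value of Eef1e1. Eef1e1, whose protein belongs to the multi-synthetase complex rather than to eEF1 itself, was at 21.6 and 25.0 RPKM (1.16-fold higher in CD8, 1.08 to 1.24). Values for Eef1a1 and Eef1g are uncertain in level, since 60.6% and 64.3% of the 50-base words of their transcripts also occur in other annotated genes, pseudogenes among them.

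Eef2k had the largest difference of the group. Its protein is the calcium- and calmodulin-dependent kinase that phosphorylates and blocks eEF2, slowing elongation. It was at 1.73 RPKM in CD4, from 270 reads, and 3.67 RPKM in CD8, from 552 reads, a 2.12-fold difference (1.83 to 2.46). On the scale with a pseudocount of 1 RPKM the difference was -0.77, under 2-fold. With 0.1 RPKM it passed 2-fold, and with 5 RPKM it was under 1.5-fold. The kinase mRNA was far below its substrate in both libraries, with a ratio of Eef2 to Eef2k of 907 in CD4 and 418 in CD8. Eef2k is low and stands on several identical rows of the files, so its value carries no more reads than those given.

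**Figure D2:**
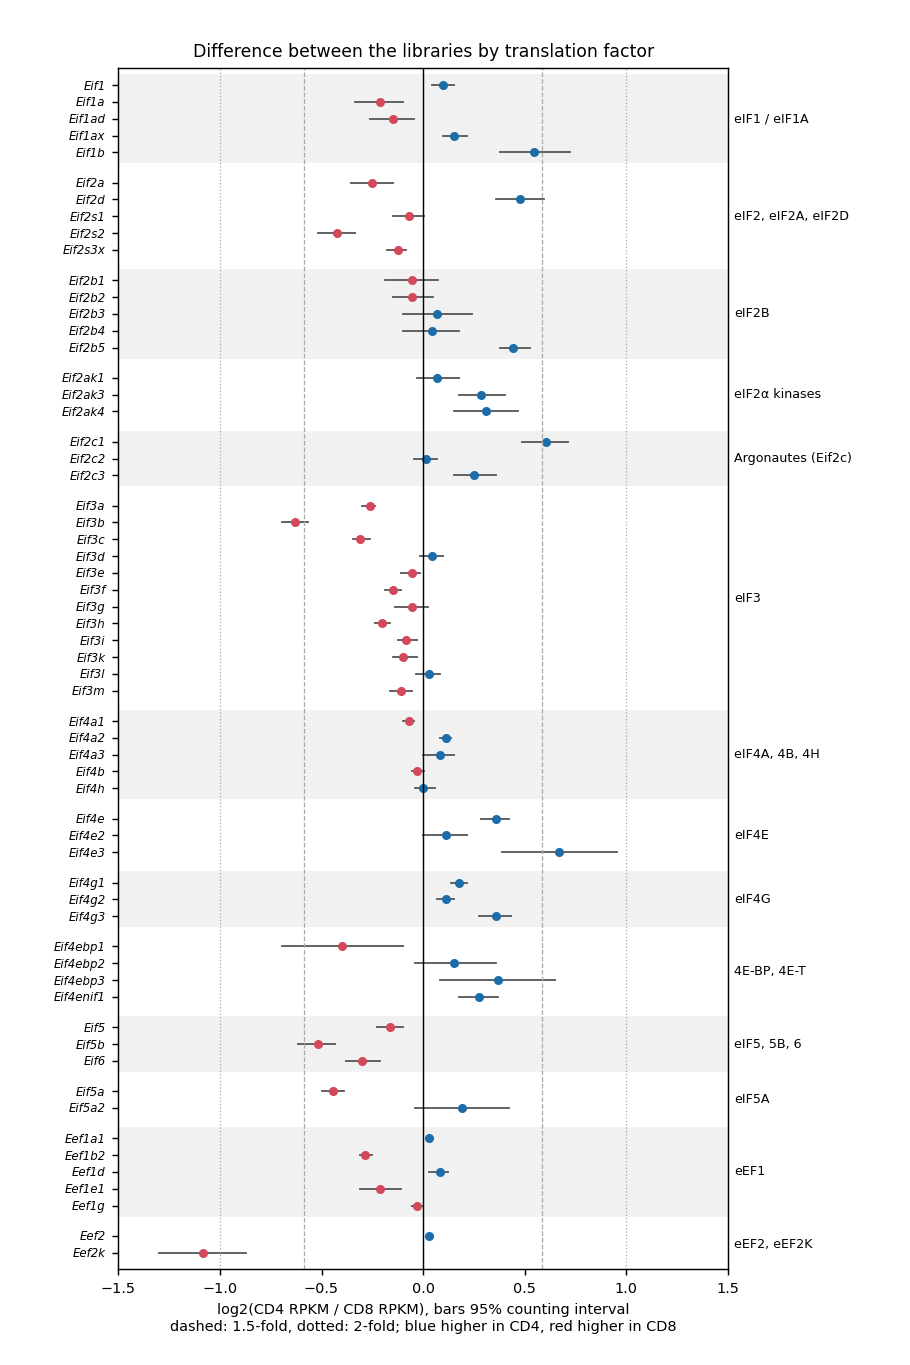
log2 ratio of CD4 to CD8 RPKM for the 60 compared genes by role, with 95% counting intervals as bars, dashed lines at 1.5-fold and dotted lines at 2-fold. Points right of 0 (blue) were higher in CD4 and points left of it (red) higher in CD8. On this scale the eIF4E and eIF4G genes lie to the right, most eIF3 genes with Eif5, Eif5b and Eif6 to the left, and Eef2k lies beyond 2-fold at 2.12-fold higher in CD8.

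Of the cap-binding complex, the 6 compared eIF4E and eIF4G genes all stood toward CD4 on the deposited scale, where 59.5% of symbols did. Against genes of similar length, where the share of symbols is even, 1 eIF4G gene did not. On the deposited scale none passed 1.5-fold with the pseudocount of 1 RPKM (8.07% of symbols toward CD4). Eif4e, the cap-binding protein that limits recruitment of many mRNAs, was at 26.1 and 20.4 RPKM (1.28-fold, 1.22 to 1.34). Eif4e2, the 4EHP protein that binds the cap without recruiting eIF4G and represses translation, was at 23.3 and 21.6 RPKM (1.08-fold, 0.999 to 1.16), an interval that covered equality. Eif4e3, a divergent cap binder, was at 4.58 and 2.88 RPKM (1.59-fold, 1.31 to 1.94, from 284 and 172 reads), which is under 1.5-fold once the pseudocount is added, and 14.8% of its exonic bases overlap another gene on the same strand.

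The scaffold genes followed in the same direction. Eif4g1, the main eIF4G, was at 111 and 98.3 RPKM (1.13-fold, 1.10 to 1.16). Eif4g3, its less abundant paralog, was at 20.3 and 15.9 RPKM (1.28-fold, 1.21 to 1.35), and Eif4g2, the DAP5 protein that works without eIF4E, was at 64.9 and 60.0 RPKM (1.08-fold, 1.05 to 1.11). The median log2 difference was 0.34 over the 3 compared eIF4E genes and 0.18 over the 3 eIF4G genes, against 0.08 over all symbols. The eIF4E median was 0.22 without Eif4e3, which is lost both under a filter at 5 RPKM and when genes of shared sequence are left out. Both medians were above 0 under each scaling tried. Longer genes lay further toward CD4 here, and against genes of similar length the eIF4G median was 0.03 with 2 of 3 toward CD4, while the eIF4E median was 0.20 with 3 of 3.

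The helicase and its cofactors were nearly equal on the deposited scale, while all 5 stood toward CD4 after rescaling to a sum of 1000000 and 4 of 5 toward CD8 when centred on the median gene. Eif4a1, the main helicase, was at 396 and 415 RPKM (1.05-fold higher in CD8, 1.03 to 1.07), and Eif4a2, its close paralog, at 288 and 266 RPKM (1.08-fold higher in CD4, 1.06 to 1.10). The ratio of Eif4a1 to Eif4a2 was 1.38 in CD4 and 1.56 in CD8. Eif4a3 belongs to the exon junction complex rather than to eIF4F and was at 89.9 and 85.1 RPKM. Eif4b and Eif4h, which stimulate the helicase, were at 205 and 208 RPKM and at 123 RPKM in both. All 5 differed by at most 1.08-fold. Per length, the helicase exceeded the cap binder, with a ratio of Eif4a1 to Eif4e of 15.2 in CD4 and 20.4 in CD8, and Eif4g1 to Eif4e was 4.26 and 4.82. The level of Eif4a1 is uncertain, since 33.3% of its 50-base words also occur in other annotated genes.

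The proteins that hold eIF4E back went both ways. Eif4ebp1, an mTOR target that releases eIF4E when phosphorylated, was at 3.39 and 4.46 RPKM (1.32-fold higher in CD8, 1.07 to 1.62), from 164 and 208 reads. That interval covered equality when the smallest possible read number was taken for the gene, and it was the 1 gene of the 60 where this choice mattered. Eif4ebp2, the related inhibitor, was at 10.3 and 9.24 RPKM (1.11-fold higher in CD4, 0.971 to 1.28). Eif4ebp3 was at 8.56 and 6.65 RPKM (1.29-fold higher in CD4, 1.06 to 1.57), and 67.3% of its exonic bases overlap another annotated gene on the same strand. Eif4enif1, the 4E-T shuttling protein that takes eIF4E to the nucleus and to processing bodies, was at 18.4 and 15.2 RPKM (1.21-fold, 1.13 to 1.29). The summed level of the 3 Eif4ebp genes over that of Eif4e was 0.852 in CD4 and 0.998 in CD8.

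Of 12 compared eIF3 subunits 10 stood toward CD8 on the deposited scale (40.5% of symbols), and 3 did after rescaling to a sum of 1000000 (23.0%). On the deposited scale their median log2 difference was -0.10, and 1 gene, Eif3b, passed 1.5-fold, where 7.47% of symbols were. Eif3b, the RNA-recognition and propeller subunit of the core that is conserved to yeast, was at 45.2 and 69.8 RPKM (1.55-fold, 1.48 to 1.62, from 3293 and 4906 reads). It was the lowest of the compared subunits in both libraries, and it was under 1.5-fold after rescaling to a sum of 1000000 or with a pseudocount of 5 RPKM. The other large core subunits were next, Eif3c at 119.7 and 148 RPKM (1.24-fold, 1.20 to 1.27) and Eif3a, the scaffold of the complex, at 94.9 and 114 RPKM (1.20-fold, 1.18 to 1.23).

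Among the remaining subunits, Eif3h was the highest at 296 and 340.4 RPKM (1.15-fold, 1.12 to 1.18). Eif3f was at 143 and 159 RPKM (1.11-fold, 1.08 to 1.14), Eif3m at 160.5 and 173 RPKM, and Eif3g at 106 and 111 RPKM. Eif3e was at 227 and 237 RPKM (1.04-fold, 1.01 to 1.08), Eif3i at 256 and 270.1 RPKM (1.06-fold, 1.02 to 1.09) and Eif3k at 204 and 218 RPKM (1.07-fold, 1.02 to 1.11), all toward CD8. Shared sequence makes the levels of Eif3h (26.2% of 50-base words) and Eif3m (15.2%) less certain. Eif3d, the subunit that can bind the cap of some mRNAs, was at 124 and 120.3 RPKM, and Eif3l at 107 and 105 RPKM, with intervals that covered equality for both. On the Eif3d exons 43.3% of bases overlap a gene annotated on the other strand, and the strand setting of the counting is not given. Subunits of a complex in which each occurs once spanned a 6.55-fold range of RPKM in CD4 and 4.88-fold in CD8. After rescaling to a sum of 1000000 the median of the subunits was 0.11, and centred on the median gene it was -0.18 with 12 of 12 toward CD8. Against genes of similar length it was -0.09 with 10 of 12.

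Of the 5 genes of initiator tRNA delivery 4, among them all 3 eIF2 subunits, stood toward CD8 on the deposited scale (40.5% of symbols). After rescaling to a sum of 1000000, 2 of 5 did (23.0%). Eif2s1, the alpha subunit whose phosphorylation shuts down initiation, was at 32.9 and 34.7 RPKM (1.05-fold, 0.998 to 1.11), an interval that covered equality. Eif2s2, the beta subunit, was at 28.2 and 37.7 RPKM (1.34-fold higher in CD8, 1.26 to 1.43), and Eif2s3x, the X-linked gamma subunit that binds the tRNA, was at 80.2 and 87.5 RPKM (1.09-fold, 1.06 to 1.13), with 36.2% of its 50-base words shared with other genes. Of the alternative carriers, Eif2a was at 23.9 and 28.6 RPKM (1.19-fold higher in CD8, 1.11 to 1.28). Eif2d, which also acts in recycling, went the other way at 25.9 and 18.6 RPKM (1.39-fold higher in CD4, 1.28 to 1.51). Under rescaling to a sum of 1000000 the median of these 5 genes moved from -0.12 to 0.09.

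Of the exchange factor eIF2B, which reloads eIF2 with GTP, 1 subunit of 5 had an interval off equality, while the median of the 5 was 0.04 on the deposited scale, 0.24 after rescaling to a sum of 1000000 and -0.04 when centred on the median gene. Eif2b5, the catalytic epsilon subunit, was at 56.2 and 41.2 RPKM (1.36-fold, 1.30 to 1.44, from 3533 and 2498 reads). Eif2b1, Eif2b2, Eif2b3 and Eif2b4 were between 5.95 and 39.5 RPKM in CD4 and between 5.67 and 41.0 in CD8, each at most 1.05-fold apart with an interval that covered equality. Eif2b5 was thus the highest subunit of the complex in both libraries, nearly level with Eif2b2 in CD8.

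The 3 kinases of eIF2 alpha left in the set stood toward CD4 (59.5% of symbols), as did 2 of 3 when centred on the median gene (an even share of symbols). Eif2ak3, the PERK kinase of the endoplasmic reticulum stress response, was at 13.5 and 11.1 RPKM (1.22-fold, 1.13 to 1.32). Eif2ak4, the GCN2 kinase that senses uncharged tRNA, was at 5.67 and 4.59 RPKM (1.24-fold, 1.11 to 1.38). Eif2ak1, the heme-regulated kinase, was at 15.2 and 14.5 RPKM (1.05-fold, 0.979 to 1.13). Against genes of similar length the median was 0.11 in place of 0.26.

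Start codon factors went both ways on the deposited scale, with 2 of 5 toward CD8 (40.5% of symbols) and a median of 0.10. After rescaling to a sum of 1000000, 1 of 5 stood toward CD8 (23.0%) and the median was 0.31. Eif1, which keeps the scanning complex open, was the highest at 205 and 192 RPKM (1.07-fold, 1.03 to 1.11), with 31.6% of its 50-base words shared. Its paralog Eif1b had the largest difference toward CD4 of the group beside Eif2c1 and Eif4e3, at 31.8 and 21.7 RPKM (1.46-fold, 1.30 to 1.65, from 718 and 473 reads). Against genes of similar length Eif1b passed 1.5-fold, and 12.7% of its exonic bases overlap a gene on the other strand. The eIF1A paralogs stood in opposite directions on the deposited scale, Eif1a at 15.9 and 18.5 RPKM (1.16-fold higher in CD8, 1.07 to 1.26) and Eif1ax at 35.2 and 31.6 RPKM (1.11-fold higher in CD4, 1.07 to 1.16). Eif1ad, a nuclear protein with an eIF1A-like domain, was at 22.3 and 24.7 RPKM.

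The factors of subunit joining were all higher in CD8 on the deposited scale (40.5% of symbols), and 2 of 3 were after rescaling to a sum of 1000000 (23.0%). Eif5b, the GTPase that joins the subunits, was at 8.86 and 12.7 RPKM (1.43-fold, 1.35 to 1.53, from 1703 and 2355 reads). Eif5, the GTPase activator of eIF2, was at 38.9 and 43.4 RPKM (1.12-fold, 1.07 to 1.17). Eif6, which binds the large subunit and prevents early joining, was at 56.0 and 68.6 RPKM (1.23-fold, 1.16 to 1.30). Their median was -0.29, and after that rescaling it was -0.08. For Eif5b, 16.8% of exonic bases overlap Rev1 on the other strand.

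Eif5a, the hypusine-bearing factor that helps the ribosome past difficult peptide bonds, was at 96.0 and 130.3 RPKM (1.36-fold, 1.31 to 1.41, from 4766 and 6237 reads). Its paralog Eif5a2 was far lower at 2.74 and 2.40 RPKM (1.14-fold higher in CD4, 0.974 to 1.34), so the ratio of Eif5a to Eif5a2 was 35.1 in CD4 and 54.4 in CD8. The enzymes that make hypusine on eIF5A are not in the set and fall outside the rule for naming, and they were chosen after their values were seen. Dhps, the deoxyhypusine synthase, was at 28.2 and 33.6 RPKM (1.19-fold higher in CD8, 1.09 to 1.30), and Dohh, the hydroxylase of the next step, was at 14.5 and 20.4 RPKM (1.41-fold, 1.25 to 1.58). After rescaling to a sum of 1000000, Eif5a moved from -0.44 to -0.23 on the log2 scale. Dhps and Dohh, at -0.24 and -0.47 on the deposited scale, were not worked out under that rescaling.

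The Argonaute genes under Eif2c symbols stood toward CD4 in the 3 that were compared (59.5% of symbols), and in 2 of 3 when centred on the median gene (an even share of symbols). Eif2c2, the Argonaute with slicing activity, was the highest at 12.2 and 12.1 RPKM (1.01-fold, 0.968 to 1.05). Eif2c1 was at 9.02 and 5.96 RPKM (1.52-fold higher in CD4, 1.40 to 1.64), under 1.5-fold with the pseudocount, and Eif2c3 at 4.61 and 3.87 RPKM (1.19-fold, 1.11 to 1.28). Without these 4 symbols the median of the translation factors was -0.02 in place of 0.01, and the count past 1.5-fold was the same 2 genes.

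Many mRNAs of the translation machinery begin with a terminal oligopyrimidine tract (TOP), by which mTOR signalling controls their translation. Ribosomal protein mRNAs are of this class, and so are those of the elongation factors Eef1a1, Eef1b2, Eef1d, Eef1g and Eef2 and of Eif3e, Eif3f and Eif3h. This is a textbook list and may not hold every TOP gene of the set. The 8 TOP genes of the set had a median log2 difference of -0.05, with 5 of 8 toward CD8 on the deposited scale (40.5% of symbols), 1 of 8 after rescaling to a sum of 1000000 (23.0%) and 8 of 8 with either centring. None passed 1.5-fold, against 15.5% of symbols. The other 52 compared genes had a median of 0.02. The 81 compared ribosomal protein genes had a median of -0.37, with 77 toward CD8 and 23 at least 1.5-fold higher there (7.47% of symbols). With 1 library per cell type the gap between these medians has no test. Ribosomal protein genes are also shorter, with a median length of 824 bases against 1854 for the 8 TOP genes, and against genes of similar length the medians were -0.24 and -0.09. After rescaling to a sum of 1000000 they were -0.16 and 0.16.

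The starts of 4 of these 8 genes had a window and are shown because the class is defined by how the mRNA begins, with the annotated start as base 11 of each 30-base window. The windows are from RefSeq on GRCm38.p6, and capitals mark a run that begins with C and goes on with C or T for at least 5 bases in all, beginning within 5 bases of the annotated start on the gene's strand.
Eef1a1, chr9:78481705-78481734, minus strand: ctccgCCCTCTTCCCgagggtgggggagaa
Eif3f, chr7:108934405-108934434, plus strand: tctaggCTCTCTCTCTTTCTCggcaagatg
Eef1b2, chr1:63176821-63176850, plus strand: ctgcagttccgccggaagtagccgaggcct
Eef2, chr10:81176621-81176650, plus strand: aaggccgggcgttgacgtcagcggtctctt
A run was found at 2 of these 4 starts, at 30 of 64 ribosomal protein genes with a window (46.9%), at 12 of the other 46 members with a window (26.1%) and at 21.2% of 27025 genes in all, where any start of a gene counted. Absence of the run says only that none begins within 5 bases of the annotated start. The Eef2 window, for example, ends in such letters further downstream. Annotated starts can lie away from the start in use, so a marked run is not shown to be where the mRNA begins. Both marked runs begin before the annotated start. Among the other members, Eif2s3x had a run of 12 bases and Eif3l a run of 9, against 10 at Eef1a1 and 15 at Eif3f. Of the 4 starts shown, those with a run belong to Eef1a1, 1.02-fold higher in CD4, and Eif3f, 1.11-fold higher in CD8. Those without one belong to Eef2, 1.02-fold higher in CD4, and Eef1b2, 1.22-fold higher in CD8. On the deposited scale each kind thus had 1 gene in each direction. With either centring all 4 stood toward CD8, as did 8 of 8 TOP genes. After rescaling to a sum of 1000000, 7 of the 8 TOP genes stood toward CD4, with Eef1a1 at 0.24, Eef2 at 0.25 and Eef1b2 at -0.07.

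**Figure D3:**
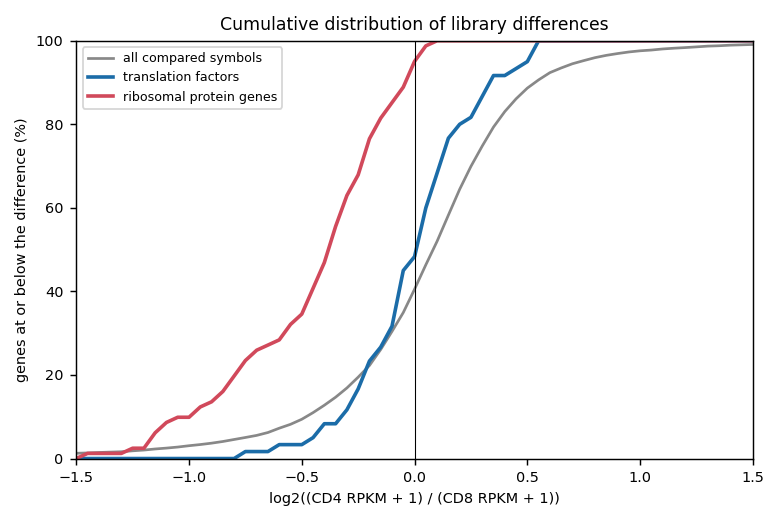
Share of genes (%) at or below each log2 difference, CD4 minus CD8, for all 10228 compared symbols (grey), the 60 translation factors (blue) and 81 ribosomal protein genes (red). The blue curve is steeper than the grey one and reaches its median at 0.01, while the red curve lies to the left with a median of -0.37.

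Length moved with the differences. Across the 60 translation factors the Spearman rho of recovered gene length and log2 difference was 0.16, and across 10227 compared symbols with a length it was 0.20, where genes share both libraries. Split at the median length of 2523 bases, the 30 shorter translation factors had a median of -0.05 with 17 toward CD8, and the 30 longer ones a median of 0.06 with 12 toward CD8. Over all symbols the median went from -0.21 in the shortest of 10 equal length groups to 0.16 in the longest. Against genes of similar length, 40 of the 60 translation factors stood toward CD8 with a median of -0.07, and Eif5b joined Eef2k and Eif3b past 1.5-fold. Recovered lengths can be off by a whole multiple, which these comparisons do not allow for. The part of length in the values above was not tested beyond this.

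**Figure D4:**
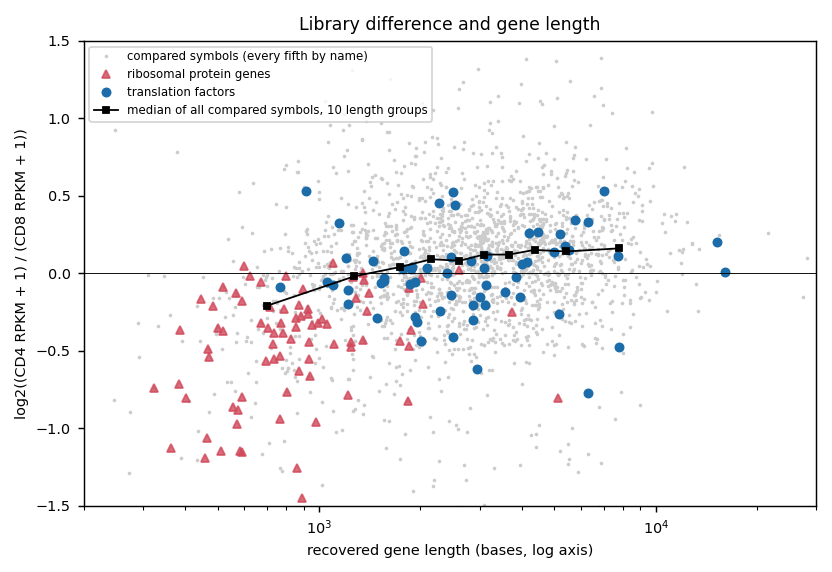
log2 difference, CD4 minus CD8, against recovered gene length in bases (log axis) for a regular subset of compared symbols taken in order of name (grey), ribosomal protein genes (red triangles) and the 60 translation factors (blue circles). The black line joins the medians of 10 equal length groups, from -0.21 to 0.16, and the translation factors lie on both sides of it with Eef2k and Eif3b lowest. Axes show part of the range, and symbols beyond it are not drawn.

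Of 35 partners and regulators of translation outside the set, 18 stood toward CD4 (59.5% of symbols) and 17 toward CD8 (40.5%). Their median log2 difference was 0.02, with 1 gene at least 1.5-fold higher in CD4 (8.07%) and none in CD8 (7.47%). That gene was Ddit3, the CHOP transcription factor induced when eIF2 alpha is phosphorylated, at 37.5 and 23.5 RPKM (1.60-fold, 1.43 to 1.79). Tpt1, a translationally controlled growth protein whose mRNA is of the TOP class, was the highest at 899 and 1278 RPKM (1.42-fold higher in CD8, 1.40 to 1.44). Ddx3x, a helicase that helps mRNAs with structured leaders, was next by level at 132 and 155 RPKM (1.17-fold higher in CD8, 1.15 to 1.20). Outside the rule for naming, and chosen after their values were seen as further genes of the same stress pathway, Atf4 was at 105 and 78.4 RPKM (1.33-fold higher in CD4, 1.27 to 1.39) and Ppp1r15a, which restores eIF2 alpha, at 82.8 and 66.5 RPKM (1.24-fold, 1.19 to 1.30). Other genes of the list tied to this pathway were closer to equality. Ppp1r15b was at 43.3 and 40.7 RPKM (1.06-fold, 1.03 to 1.10) and Gcn1l1 at 29.3 and 26.1 RPKM (1.12-fold, 1.08 to 1.16). Impact was at 11.3 and 10.4 RPKM (1.09-fold, 0.991 to 1.20), an interval that covered equality.

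Of 6 termination and rescue genes 5 were compared, with a median of 0.01 and none past 1.5-fold (15.5% of symbols), and Gspt2 was listed at 0 in both libraries. Etf1, the release factor eRF1, was at 49.0 and 48.8 RPKM, and Upf1, of nonsense-mediated decay, at 42.5 and 34.0 RPKM (1.25-fold, 1.20 to 1.30). Pelo, which rescues stalled ribosomes, was at 6.74 and 8.68 RPKM (1.29-fold higher in CD8, 1.09 to 1.52). The 9 mitochondrial factors had a median of 0.19 with 6 toward CD4 (59.5% of symbols) and none past 1.5-fold (15.5%). Tufm, the mitochondrial elongation factor, was the highest at 31.0 and 32.1 RPKM, Gfm1, a mitochondrial translocase, was at 22.0 and 17.5 RPKM (1.26-fold, 1.18 to 1.34), and Mtif3 differed most at 8.35 and 6.36 RPKM (1.31-fold higher in CD4, 1.19 to 1.44).

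Compared genes had a median of 3261 reads in CD4 and 2792 in CD8, and the fewest in the lower library was 164. The counting interval lay on the CD4 side of equality for 21 genes, on the CD8 side for 24 and over equality for 15. These intervals hold no spread between animals, sorts or library preparations, so a gene on 1 side differs between the libraries and is not shown to differ between the cell types.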

How the data were processed

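Per the labels' protocols, total RNA of 2 samples was depleted of ribosomal RNA and made into SOLiD low-input libraries, 1 for each cell type. The submitters' processing notes name TopHat, HTSeq and the mm9 build but no version. The sources used here do not say which annotation, strand setting or rule for multiply mapped reads was used. The deposited values are the authors' RPKM, 1 per symbol, and symbols on several rows had identical values and were counted once. Groups came from the cell type label. The members and lists were chosen with earlier results of these data known.

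Read numbers were worked out from the deposited RPKM. The ratio of library totals came from low genes, and the totals were those that made gene lengths whole, on a scale set by transcripts of GENCODE M21. Reads were whole within the printed precision for 12733 of 12735 symbols above 0 in both libraries. Where several multiples of reads and length were possible, the one closest to an annotated transcript was used, which left 45 members at their smallest length. The smallest lengths were within 0.05 of an annotated one on the natural log scale for 38.0% of the symbols checked. Those had an annotated transcript, above 1 RPKM in CD4 and a limited read number, and this share was also used to set the scale. Read numbers can thus be off by a whole multiple, most of all for the 15 compared members at a larger multiple. This alters intervals and recovered lengths, and with them the comparisons by length, but not folds. Recovered reads summed to 1.06 and 1.07 times the totals, and the cause was not tested. Folds carry exact Clopper-Pearson 95% intervals from the split of reads. Comparison was limited to symbols reaching 1 RPKM in either library and used a pseudocount of 1 RPKM, which understates differences of low genes. Size rules were 1.5-fold and 2-fold. Folds are given at least for the 10 members with the largest difference, the 10 with the highest mean and the highest of each role, and of each other list the 2 highest and the 2 most different. On simulated libraries of these samples the recovery found the ratio of reads for 100.0% and the read numbers for 97.0% of 13434 genes above 0 in both. The simulation used the recovered lengths and the same annotation, so it cannot show how often the chosen multiple is right in the deposited data. Coordinates other than those of the RefSeq windows are not printed, since the annotation used is of another build. Python 3.11.15, numpy 2.4.6, pandas 2.3.3, scipy 1.17.1 and matplotlib 3.10.9 were used.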

Additional observations from a re-analysis of the deposited data

How the results depend on the processing

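No paired analysis was possible because each cell type has 1 library and the labels carry no replicate numbers. No library was left out for the same reason. Shares in brackets are those of all symbols under the same setting. With a pseudocount of 0.1 RPKM, 2 members (Eif2c1 and Eif4e3) passed 1.5-fold toward CD4 (11.3%) and 1 (Eef2k) passed 2-fold toward CD8 (4.52%), against 0 and 0 with 1 RPKM. With 5 RPKM, 0 members were at least 1.5-fold higher in CD8 (3.68%), against 2, and with a filter at 5 RPKM 1 (Eif3b) was (6.37%). After rescaling both libraries to sum to 1000000, 5 members (Eif1b, Eif2b5, Eif2c1, Eif2d and Eif4e3) passed 1.5-fold toward CD4 (19.5%) and 1 (Eef2k) toward CD8 (5.59%), 47 stood toward CD4 and 13 toward CD8, and the medians were 0.22 for all members and 0.16 for the TOP genes. Centring on the median gene left 20 members toward CD4, and centring on genes of similar length left 20 too, with 1 (Eif1b) past 1.5-fold toward CD4 (6.52%) and 3 toward CD8 (8.15%). Rescaling to 1000000 changed the sign of 7 of 28 single-gene differences, centring on the median gene of 4 and centring by length of 6, and pseudocounts changed 0. Over the 51 members at 10 RPKM or more the rho of length and difference was 0.12. Of alternatives chosen after seeing the data, the median of all members was -0.02 without the Argonaute symbols and -0.01 without members of shared or overlapped sequence, and the TOP median was -0.11 without Eef1a1 and Eef1g. The widest counting intervals were those of Eif4ebp1, Eif4ebp3 and Eif4e3.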
